A study of Mus musculus with 24 samples.

Results

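The genes described here make, break down or sense sphingolipids, the membrane lipids built on a sphingoid base. Their mRNA was measured by bulk RNA-seq in the prefrontal cortex (PFC) of 24 mice. The list held 42 genes chosen by symbol: enzymes of synthesis, inhibitors of the first enzyme, enzymes and cofactors of breakdown, and receptors for sphingosine-1-phosphate (S1P). Of these, 39 were among the 14074 genes of the table: 17 of synthesis, 2 inhibitors (Ormdl2, Ormdl3), 17 of breakdown and 3 receptors (S1pr1, S1pr3, S1pr5). Sgms2, S1pr2 and Ormdl1 had no row there, and their mRNA was not analysed here.

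All animals were adult male C57BL/6 mice with no transgene, and each gave 1 library. Controls were not defeated and lived alone for some days before sampling. Defeated mice went through 30 days of chronic social defeat stress (CSDS) and were then divided by their behavior into a passive (PS) and an active (AS) coping strategy. Each of these 3 phenotypes was sampled 6 h after a saline injection or 2 mg/kg of dexamethasone (DEX), an agonist of the glucocorticoid receptor, which made 6 groups of 4 mice. PS and AS were therefore selected groups of defeated mice, and housing and defeat cannot be told apart between them and the controls.

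Sphingolipids begin with serine palmitoyltransferase, which joins serine to a fatty acyl-CoA. Reduction, acylation by ceramide synthases and desaturation then give ceramide, from which sphingomyelin, glycosphingolipids and ceramide-1-phosphate are made. Breakdown runs back to ceramide and sphingosine. Sphingosine kinases turn sphingosine into S1P, which leaves the cell through a transporter, acts on G protein-coupled receptors, and is removed by phosphatases or, irreversibly, by the S1P lyase. In brain these lipids are known above all from myelin, neuronal membranes and the vessel wall.

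Between 21121869 and 59439645 reads were recovered per library (median 24420130). The group medians ran from 22869703 in saline-treated controls to 34242532 in saline-treated and 37876626 in DEX-treated AS animals. Single libraries overlapped, from 23481722 in AS mouse 8 to the deepest, PS mouse 28. The 39 genes were well covered, and none had under 53 reads in any library. Values below are normalized read counts, which are gene counts divided by 1 size factor per library, and they are listed in order of mouse number within a group. Log2 fold changes were taken on log2(normalized count + 1), which understates changes of low genes slightly, and are given with the standard error (SE) of the limma fit. A gene was called at a Benjamini-Hochberg adjusted p under 0.1 over all 14074 genes.

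The DEX labels were checked with Fkbp5, a textbook target of the glucocorticoid receptor. Its mean was 796 ± 61.6 (SD, n = 4) after saline and 3820.1 ± 316 after DEX in controls, 881 ± 91.0 and 3531 ± 276 in PS animals, and 889.8 ± 139 and 3355 ± 521 in AS animals. The tissue label was checked with 10 markers of pyramidal neurons, all in the table, whose summed counts ran from 164635 to 236036 per library, against 4165 to 7392 for 5 markers of the striatum. The striatum sums were higher on average after DEX, with means of 4817 ± 381 and 5760 ± 628 in controls, 4752 ± 431 and 5372 ± 542 in PS and 5111 ± 327 and 6249 ± 803 in AS animals. Saline and DEX sums did not overlap in controls or in AS animals, and they overlapped in PS animals. The part of striatal tissue in the DEX comparisons was not tested. Mouse 60 and mouse 34 lay farthest from the rest of their group. The root mean square log2 distance over 12018 genes was 0.305 for mouse 60 (AS, DEX) and 0.301 for mouse 34 (PS, DEX), and 0.129 to 0.275 for the others. Of the 39 genes, 7 in place of 5 were called after DEX in AS animals without mouse 60, and 4 in PS animals with or without mouse 34. Over all genes these fits called 1607 in place of 1234 and 606 in place of 755. The listed genes called in PS animals were not the same without mouse 34. Sgpl1 lost its call there (limma adjusted p = 0.159) and Cers6 gained one (adjusted p = 0.0573).

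Per kilobase of exon, the 39 genes covered a wide range of levels. Psap, the precursor of the saposins that help lysosomal enzymes reach their lipids, had the highest level, a mean of 15294 normalized counts per kb over the 24 libraries. S1pr1, the S1P receptor of endothelium and astrocytes, came second at 1032 per kb, ahead of Smpd1, the acid sphingomyelinase, at 914 per kb. The other receptors stood far lower, at 80.5 per kb for S1pr5 and 47.1 for S1pr3. Acer2, a Golgi ceramidase, was lowest at 24.5 per kb. The exon lengths were those of GENCODE vM21 on GRCm38, and these levels between genes depend on the isoforms that the cortex uses.

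After DEX the receptor S1pr1 fell, and 2 enzymes of breakdown, Gba2 and Smpd3, rose in each of the 3 phenotypes. In controls 9 of the 39 genes were called, 23.1% of them against 6.49% of all genes tested. Of these 6 rose (Asah1, Galc, Gba2, Sgms1, Smpd2 and Smpd3, against 4.03% of all genes) and 3 fell (Gal3st1, S1pr1 and Sgpp2, against 2.46%). In PS animals 4 genes were called (10.3%, against 5.36% of all genes), with Gba2 and Smpd3 higher (2.74% of all genes) and S1pr1 and Sgpl1 lower (2.62%). The AS animals gave 5 (12.8%, against 8.77%), with Cers6, Gba2 and Smpd3 higher (3.82% of all genes) and S1pr1 and Sgpl1 lower (4.95%). When the response was averaged over the 3 phenotypes, 13 genes were called (33.3%, against 15.5%): Asah1, Cers6, Galc, Gba2, Kdsr, Smpd2, Smpd3 and Sphk2 rose (7.46% of all genes), and Cers4, Gal3st1, S1pr1, S1pr3 and Sgpl1 fell (8.01%). Without regard to a test, all DEX libraries lay above all saline libraries for 7 of the 39 genes in controls, 5 in PS and 4 in AS animals, against 5.81%, 5.54% and 4% of all genes. They lay below for 4, 3 and 5, against 4.32%, 4.57% and 5.02%.

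By role, the averaged DEX response called 6 of 17 breakdown genes, 5 of 17 synthesis genes, 2 of 3 receptors and 0 of 2 inhibitors, beside the 15.5% of all genes. The median log2 fold change of the 39 genes was 0.04 in controls, -0.01 in PS and 0.02 in AS animals, beside -0.01, -0.00 and 0.00 for all genes. All but Ormdl2 had a mean of at least 100 normalized counts, and under that filter the shares of all genes called were 6.66% in controls, 5.85% in PS and 9.82% in AS animals. The count of listed genes in controls was 4 without saline mouse 107 or without DEX mouse 101 or 108, and 5 without saline mouse 106. Calls over all genes fell too in these fits, to 638, 611, 660.0 and 639 from 913. Without DEX mouse 72 the count in AS animals was 3, and 985 of all genes were called in place of 1234.

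**Figure D1:**
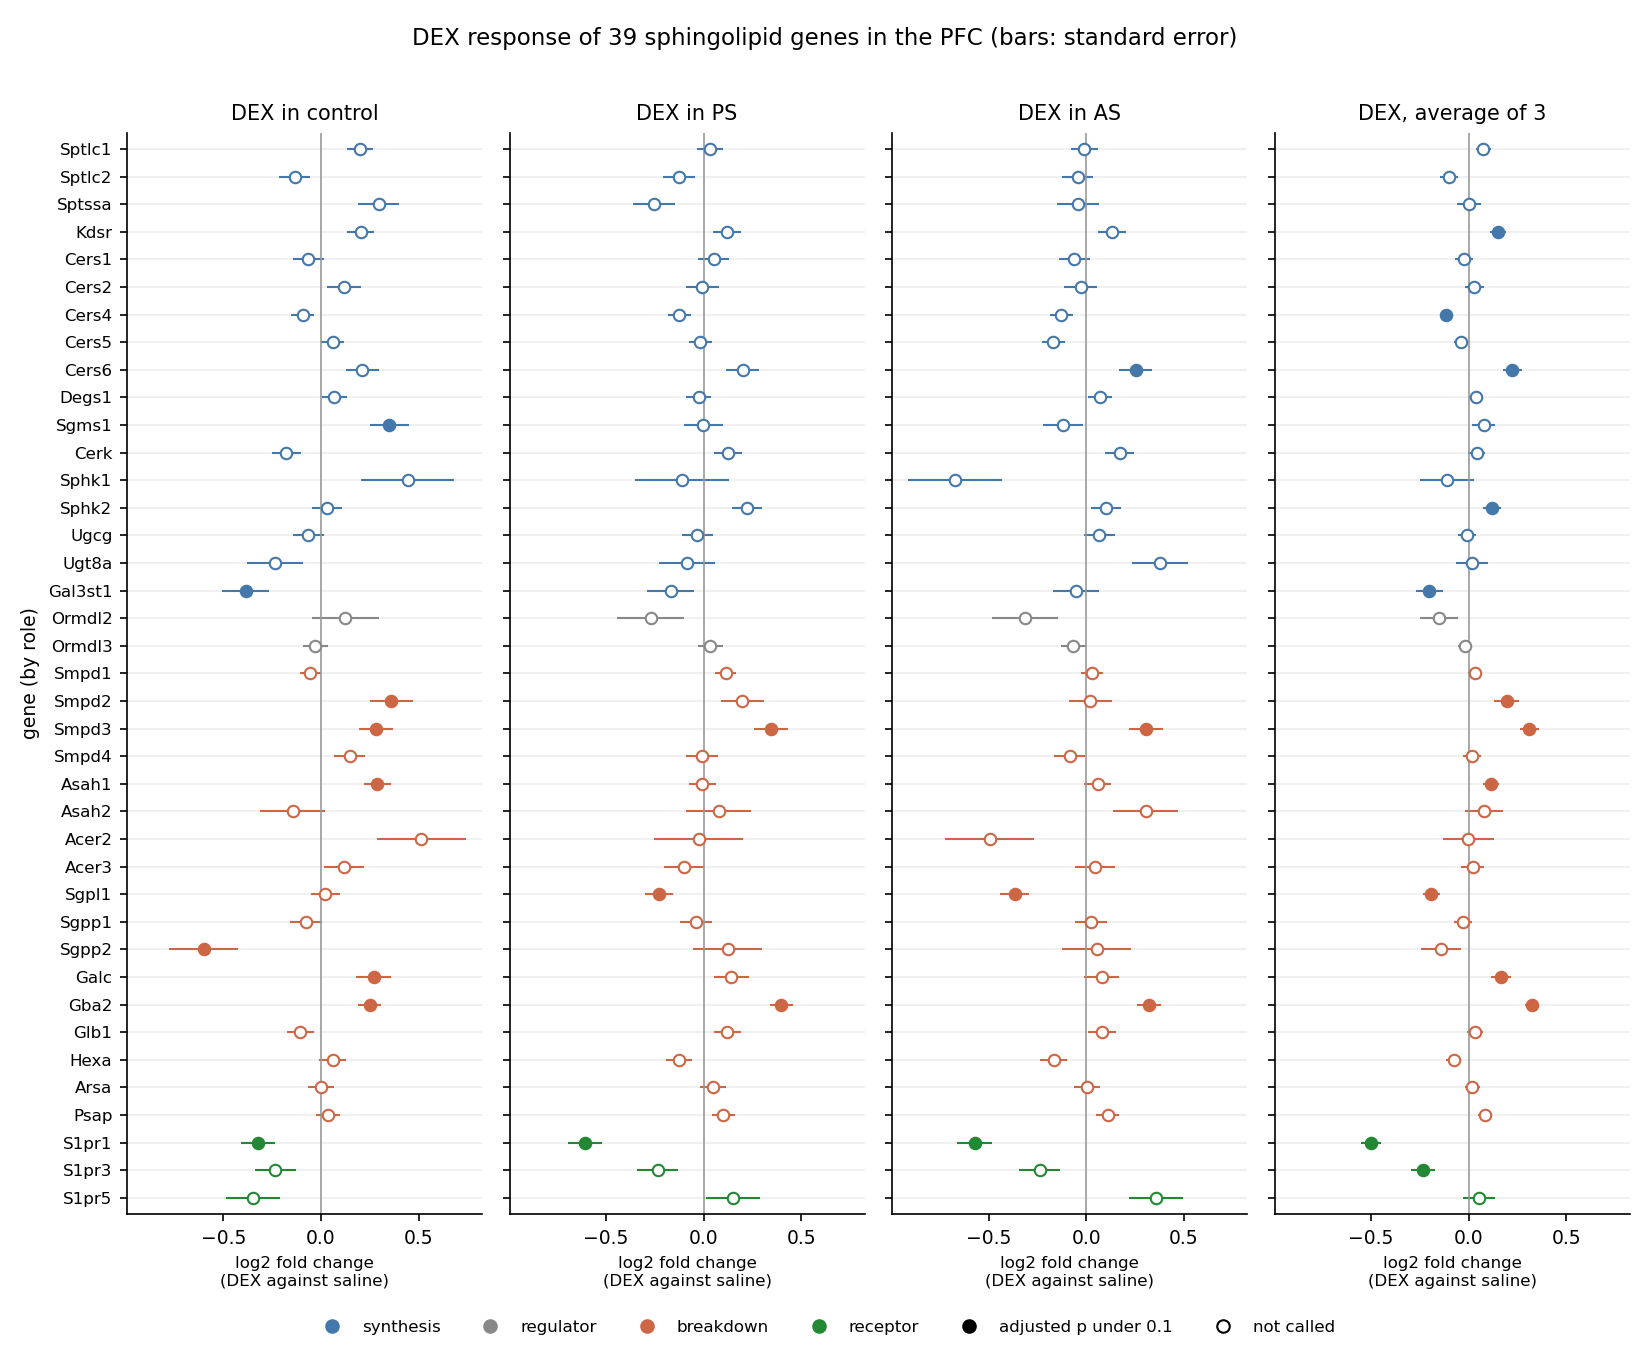
Log2 fold change of DEX against saline (x axis) for the 39 sphingolipid genes, grouped by role (y axis), in control, PS and AS animals and averaged over them. Points are limma estimates with their SE, filled where the adjusted p was under 0.1; S1pr1 lies left of 0 and Gba2 and Smpd3 lie right of 0, filled, in all 4 panels.

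Since DEX acts through a DNA-binding receptor, the 250 bases before the transcription start were read from RefSeq (build GRCm38.p6). This was done for the listed genes and for other genes of the pathway, whether or not they were called. Sequence was at hand for 39 of the 42 listed genes, not for S1pr1, Smpd3 and Asah1. These are not the same 39 as those with counts, since Sgms2, S1pr2 and Ormdl1 are among them. The glucocorticoid response palindrome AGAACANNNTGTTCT was looked for on both strands, as were its looser form GNACANNNTGTNC and the half-site AGAACA, which lies within the full palindrome. The full palindrome was in 0.00913% of 32851 windows of all genes, the looser form in 0.387% and the half-site in 16.1%. None of these 39 genes had either palindrome. A half-site was found in 5 of the 39 (12.8%, against 18.2% of all genes): Asah2, Kdsr, Psap, Sgms2 and Sgpp1. A match is a string of letters and not a binding site, and its lack says nothing of the receptor elsewhere. The windows of 4 called genes are shown, in lower case on the strand of the gene, 5′ to 3′, with half-sites in capitals. Gba2 and Sgpl1 had none, and they were called in opposite directions. Kdsr, higher in the averaged response, and Hacd2, a gene beside the list that rose in each phenotype, had 1 each, starting 189 and 242 bases before the start. Of 48 other pathway genes with sequence, Hacd2 among them, 10 had a half-site (20.8%, against 18.2% of all genes). The looser palindrome was found in 1 of the 48 and the full one in 0.
Gba2 (chr4:43578865-43579114, minus strand): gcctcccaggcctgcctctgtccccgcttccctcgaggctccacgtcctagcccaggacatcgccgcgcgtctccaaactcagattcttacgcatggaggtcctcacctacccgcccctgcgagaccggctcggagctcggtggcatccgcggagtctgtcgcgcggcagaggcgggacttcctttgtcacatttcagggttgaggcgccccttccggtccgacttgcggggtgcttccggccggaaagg
Sgpl1 (chr10:61147685-61147934, minus strand): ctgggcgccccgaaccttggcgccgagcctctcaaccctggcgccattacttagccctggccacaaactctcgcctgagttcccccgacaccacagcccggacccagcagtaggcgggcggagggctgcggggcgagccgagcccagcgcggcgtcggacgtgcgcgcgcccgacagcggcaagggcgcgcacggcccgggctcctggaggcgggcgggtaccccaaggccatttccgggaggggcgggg
Kdsr (chr1:106759743-106759992, minus strand): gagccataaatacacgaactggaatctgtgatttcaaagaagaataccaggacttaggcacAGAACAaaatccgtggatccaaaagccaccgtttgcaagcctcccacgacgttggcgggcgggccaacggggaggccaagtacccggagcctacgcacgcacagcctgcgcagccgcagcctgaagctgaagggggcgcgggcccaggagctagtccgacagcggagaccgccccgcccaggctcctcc
Hacd2 (chr16:35022171-35022420, plus strand): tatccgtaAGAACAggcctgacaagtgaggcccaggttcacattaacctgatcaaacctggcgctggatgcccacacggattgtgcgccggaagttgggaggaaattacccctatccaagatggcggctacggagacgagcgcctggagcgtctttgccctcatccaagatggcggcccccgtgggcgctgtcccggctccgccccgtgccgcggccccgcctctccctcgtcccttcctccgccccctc

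S1pr1, which couples S1P to Gi signalling and holds the endothelial barrier, showed the largest fall among the called genes of the list (chromosome 3, 115710433 to 115715072, minus strand, GRCm38). In controls its normalized counts were 3959, 3321, 3413 and 3304 after saline and 3219, 2721, 2319 and 2990.4 after DEX. PS animals had 3575, 3888, 3498 and 3709.6 after saline and 2389.9, 2349, 2551 and 2341 after DEX. In AS animals the counts were 3716, 3788, 4287 and 3664 after saline and 2427, 2285, 2816 and 2907 after DEX. Every DEX library lay below every saline library of its phenotype, and the gap was narrowest in controls. The mean fell by 19.6% in controls, fell by 34.4% in PS and fell by 32.5% in AS animals. The log2 fold changes were -0.32 (SE 0.09, limma adjusted p = 0.0360), -0.61 (SE 0.09, adjusted p = 0.000119) and -0.57 (SE 0.09, adjusted p = 0.000218).

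The fall of S1pr1 was not shown to differ between phenotypes. The difference from the control response was -0.29 in PS (SE 0.13, limma adjusted p = 0.448) and -0.25 in AS animals (SE 0.13, adjusted p = 0.389). In controls the call was lost without saline mouse 106, the highest library (adjusted p = 0.155), and without DEX mouse 112, the lowest (adjusted p = 0.135). In bulk tissue, fewer cells of a type and less RNA per cell cannot be told apart. The 12 endothelial markers (led by Flt1, with none at 0) had a median DEX log2 fold change of 0.16 in controls, -0.33 in PS and -0.67 in AS animals, and 0, 1 and 6 of them fell past the threshold. The 10 astrocyte markers (led by Slc1a2, with none at 0) had medians of 0.15, -0.15 and -0.09. The part of these cells in the fall of S1pr1 was not tested.

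S1pr3, a receptor that also couples to Gq and G12/13, fell in the averaged response (log2 fold change -0.24, SE 0.06, limma adjusted p = 0.00949). Its counts in controls were 223, 229.9, 203 and 207 after saline and 184, 198, 170.4 and 180.1 after DEX. They were 214, 248, 225 and 222 against 217, 169.8, 186 and 201 in PS, and 275, 240.0, 253 and 189.8 against 214, 213, 177 and 203 in AS animals. The groups were apart in controls and overlapped in PS and AS animals. The estimates within phenotypes were close to each other, at -0.23, -0.23 and -0.24, and none passed alone with all libraries. Without saline mouse 44 the AS value was -0.34 (limma adjusted p = 0.0296). S1pr5, the receptor of oligodendrocytes, was not called after DEX by limma (adjusted p = 0.145 in AS animals). DESeq2 (adjusted p = 0.0711) and limma after quantile normalization (0.0827) called it there, and its values are given further on.

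Genes that supply and remove S1P come next. Sgpl1 encodes the S1P lyase, which ends the pathway by cleaving S1P (chromosome 10, 61098642 to 61147703, minus strand). PS animals had 888, 908, 805 and 927 normalized counts after saline and 710.5, 757, 764 and 777 after DEX. In AS animals these were 881, 889.9, 919 and 869 after saline and 615, 730.3, 665 and 758 after DEX. Neither pair of groups overlapped. Controls had 695, 824, 810.1 and 801 after saline and 893, 748, 746 and 792 after DEX, which overlapped. Of 10 microglia markers, Aif1, Cx3cr1, P2ry12 and Siglech fell past the threshold in PS and in AS animals, and Aif1 and P2ry12 in controls. The part of microglia in the fall of Sgpl1 was not tested.

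The mean of Sgpl1 fell by 22.2% in AS animals (log2 fold change -0.37, SE 0.07, limma adjusted p = 0.00303) and fell by 14.7% in PS animals (-0.23, SE 0.07, adjusted p = 0.0966). In controls the log2 fold change was 0.02 (SE 0.07, adjusted p = 0.938). The AS response differed from that of controls by -0.39 (SE 0.10), which missed the threshold in limma (adjusted p = 0.113) and passed it in DESeq2 on the recovered reads (adjusted p = 0.0330). The call in PS animals was marginal. It was lost when 1 library was left out in 15 of 24 cases, with adjusted p from 0.105 to 0.259 (mice 2, 6, 28, 34, 52, 56 and 68 of PS, 107, 108, 109, 117 and 122 of controls, and 8, 14 and 40 of AS).

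Sgpp2, one of the S1P phosphatases of the endoplasmic reticulum, fell in controls. Its counts there were 416, 403, 408 and 385 after saline and 176, 281, 362 and 277 after DEX, with no overlap. PS animals had 214, 328, 345 and 332 after saline and 336, 267, 402 and 316 after DEX, and AS animals 262, 297, 337 and 343 and then 322, 354, 367 and 249.9. The saline-treated controls stood above all other saline libraries, and the DEX-treated controls overlapped the stressed animals. The log2 fold change in controls was -0.60 (SE 0.18, limma adjusted p = 0.0534), against 0.12 in PS and 0.05 in AS animals (SE 0.18 each, adjusted p = 0.869 and 0.924). That call was lost without saline mouse 106 (adjusted p = 0.123), saline mouse 107 (0.112) or DEX mouse 101 (0.227). The same saline controls enter the comparison with stress, where Sgpp2 was not called by limma. Sgpp1, the more abundant phosphatase, had log2 fold changes between -0.08 and 0.03.

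Of the sphingosine kinases, Sphk2, which works in the nucleus and in organelles, rose in the averaged response by 0.12 (SE 0.04, limma adjusted p = 0.0864; DESeq2 also called it in PS animals), a limma call lost in 12 of 24 fits that left out 1 library (adjusted p from 0.105 to 0.161, mice 28, 34, 38, 40, 44, 52, 60, 62, 101, 107, 109 and 122). Around these genes a wider list of 65 sphingolipid genes was examined, of which 51 were in the table. DEX called 8 of them in controls (15.7%), 6 in PS (11.8%) and 7 in AS animals (13.7%), against the shares of all genes given above. It held the widest changes of the S1P route. Spns2, the transporter that carries S1P out of cells, had 1401, 1446, 1455 and 1460.4 normalized counts after saline and 2752, 2709.9, 2559 and 2543 after DEX in controls. In PS animals Spns2 had 1404, 1410.2, 1287 and 1511 and then 2356, 2653, 2596 and 2456, and in AS animals 1429, 1279.7, 1442 and 1496 and then 2016, 2362, 2459 and 2508. All 12 DEX libraries were above all 12 saline libraries.

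Spns2 rose by 83.3% in controls, 79.3% in PS and 65.5% in AS animals. On the log2 scale this was 0.87, 0.84 and 0.72 (each with SE 0.07, limma adjusted p = 7.45e-09, 1.56e-08 and 2.12e-07). Plpp3, a surface phosphatase that dephosphorylates S1P and lysophosphatidic acid, went the other way in the stressed animals. Its mean fell by 22.8% in PS, from 6854 ± 315 to 5288 ± 116 (log2 fold change -0.37, SE 0.07, adjusted p = 0.00289), and by 21.5% in AS animals, from 7152 ± 362 to 5616 ± 474 (-0.35, SE 0.07, adjusted p = 0.00438). In controls it was 6275 ± 311 and 5782 ± 745 (-0.13, SE 0.07, adjusted p = 0.458). The PS and AS groups did not overlap, and the control groups did. Plpp3 is an astrocyte gene, and the astrocyte marker sums in AS animals were 142058, 139880, 150254 and 121523 after saline and 123661, 132074, 116157 and 151307 after DEX, which overlapped. In PS animals they were 137298, 143341, 123979 and 134274 and then 125955, 113096, 132853 and 121428, also overlapping. Their part in the fall of Plpp3 was not tested. Abca1, a lipid exporter, rose in controls (0.53, SE 0.14, adjusted p = 0.0310), where the call was lost without saline mouse 107 (adjusted p = 0.104) or DEX mouse 122 (0.115).

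**Figure D2:**
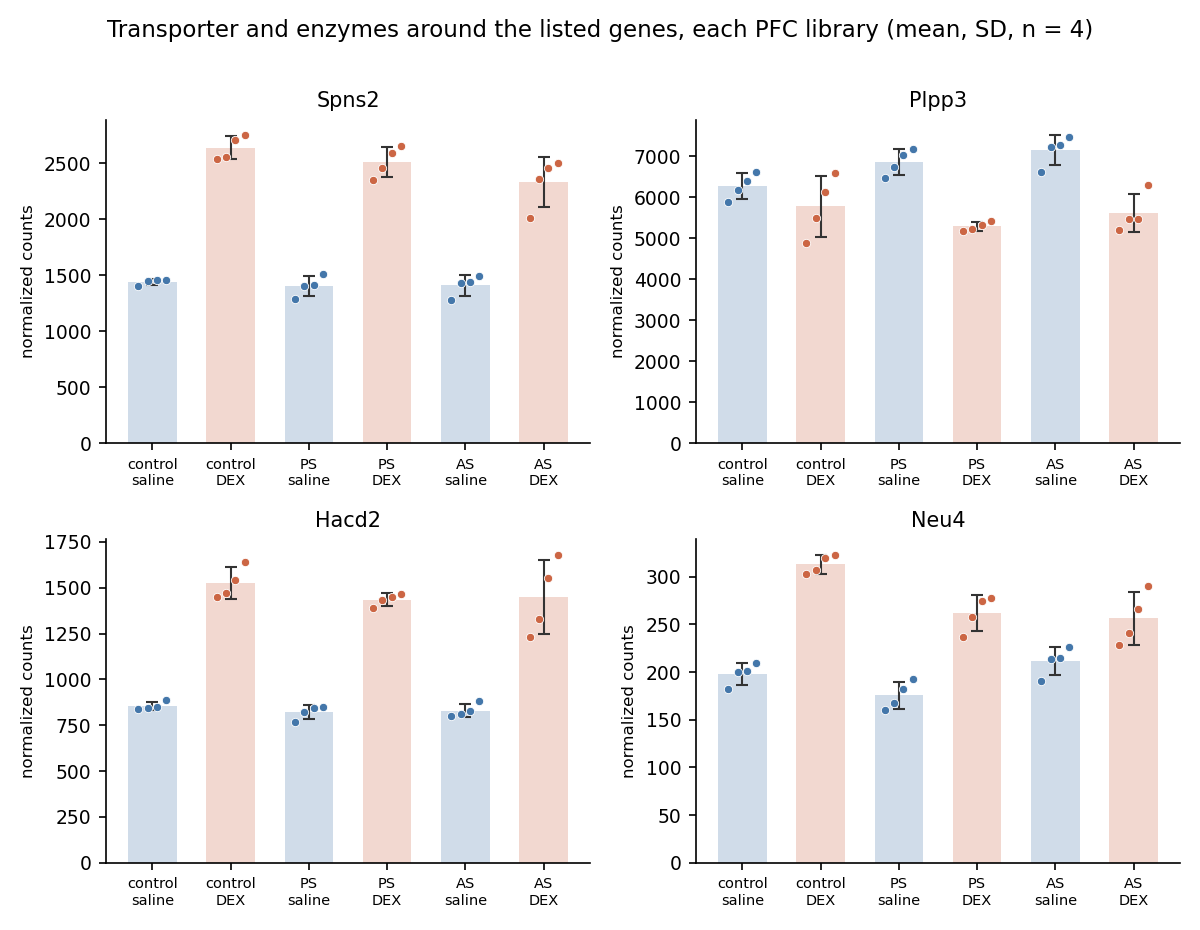
Normalized counts (y axis, from 0) of Spns2, Plpp3, Hacd2 and Neu4 in the 6 groups (x axis). Points are libraries, bars group means and whiskers SD (n = 4); for Spns2 and Hacd2 all DEX libraries stand above all saline libraries, while Plpp3 is lower after DEX in PS and AS animals.

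Gba2, Smpd3 and Smpd2 are genes of breakdown. Gba2 encodes the glucosylceramidase that works outside the lysosome (chromosome 4, 43566928 to 43578873, minus strand). In controls it had 2501, 2634, 2696 and 2566 normalized counts after saline and 3205, 3065, 3241 and 2861 after DEX. Counts in PS animals were 2329, 2147, 2397 and 2472 and then 3149, 3049, 3009.6 and 3094, and in AS animals 2335, 2129, 2411 and 2502 and then 2889, 2746, 3214 and 2869. Every DEX library was higher than all 12 saline libraries. The mean rose by 19.0% in controls and 31.6% in PS animals, and the log2 changes in the 3 phenotypes were 0.25, 0.40 and 0.32 (each with SE 0.06, limma adjusted p = 0.0143, 0.000169 and 0.00141). These calls held in every alternative fit that was run.

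Smpd3 encodes neutral sphingomyelinase 2, a neuronal enzyme that makes ceramide at the membrane and takes part in exosome release (chromosome 8, 106252548 to 106337988, minus strand). Controls had 2242, 2042, 2165 and 1727 counts after saline and 2236, 2641, 2503 and 2527 after DEX. PS animals had 1796, 1859, 1935 and 1828 and then 2387, 2282, 2440.2 and 2325. In AS animals it was 1991, 1886, 1921 and 1694 and then 2384, 2593, 1855 and 2485. The PS groups were apart, whereas 1 library overlapped in controls (DEX mouse 101) and in AS animals (DEX mouse 60).

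The mean of Smpd3 rose by 21.2%, 27.2% and 24.4% in controls, PS and AS animals (log2 fold changes 0.28, 0.35 and 0.31, SE 0.09 each, limma adjusted p = 0.0707, 0.0220 and 0.0377). Without mouse 60 the AS value was 0.41 (adjusted p = 0.00123). The call in controls was lost without saline mouse 107 (adjusted p = 0.137) or 117 (0.257), or without DEX mouse 108 (0.199), 112 (0.118) or 122 (0.155), and that in AS animals without DEX mouse 42 (0.157) or 72 (0.113). Another neutral sphingomyelinase, Smpd2, had 285, 261, 221 and 306 counts in saline-treated and 393, 335, 319 and 325 in DEX-treated controls, with no overlap. In PS animals Smpd2 had 264, 269, 235 and 259.6 and then 293, 305, 256 and 329, and in AS animals 307, 262, 306 and 324 and then 311, 260.0, 353 and 298, overlapping in both. It rose in controls (0.36, SE 0.11, adjusted p = 0.0620) and in the averaged response (0.19, SE 0.06, adjusted p = 0.0446). The control call was lost without saline mouse 107 (adjusted p = 0.140) or 109 (0.208) or without DEX mouse 101 (0.216) or 108 (0.109). Smpd1, the lysosomal enzyme, and Smpd4 were not called by limma after DEX.

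Asah1, the lysosomal acid ceramidase that frees sphingosine (chromosome 8, 41340197 to 41374773, minus strand), rose in controls. The counts there were 1284, 1430.0, 1351 and 1374 after saline and 1758, 1651, 1559 and 1674 after DEX. In PS animals they were 1614, 1416, 1397 and 1540.0 and then 1493, 1372, 1543 and 1532, and in AS animals 1418, 1437, 1577 and 1681 and then 1392, 1693, 1655 and 1632. The groups were apart in controls and overlapped in the stressed animals. The log2 fold changes were 0.29 in controls (SE 0.07, limma adjusted p = 0.0158), -0.01 in PS and 0.06 in AS animals (SE 0.07 each). The averaged call (0.11, SE 0.04, adjusted p = 0.0701) was lost in 13 of 24 fits that left out 1 library, with adjusted p up to 0.132 (mice 6, 8, 14, 28, 42, 52, 56, 60, 62, 72, 101, 106 and 122). The other ceramidases, Asah2, Acer2 and Acer3, were not called after DEX within a phenotype or on average by limma or DESeq2 with all libraries. Limma called Acer2 in controls without DEX mouse 112 (0.72, adjusted p = 0.0759). It also called Acer2 in AS animals without saline mouse 14 (-0.68, adjusted p = 0.0982). Acer2 is taken up with the interactions.

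Galactolipids make up much of myelin. Of their listed genes, Galc rose and Gal3st1 fell in controls, while Ugt8a and Arsa were not called there by limma. Galc, the lysosomal galactosylceramidase, had 873, 914, 944 and 926 counts after saline and 1097, 1138, 1058 and 1119 after DEX in controls, with no overlap. PS animals had 922, 912, 838 and 984 and then 1016, 846, 1118 and 1073, and AS animals 879.8, 901, 1079.7 and 839.6 and then 912, 1059.7, 849.5 and 1090.5. Both of these pairs overlapped. The log2 fold change was 0.27 in controls (SE 0.09, limma adjusted p = 0.0927), lost in 14 of 24 fits that left out 1 library (adjusted p from 0.101 to 0.225, the 8 control mice and mice 2, 6, 8, 14, 28 and 56), and 0.16 in the averaged response (SE 0.05, adjusted p = 0.0371), which kept its call. Gal3st1, the sulfotransferase that turns galactosylceramide into sulfatide, fell in controls from a mean of 223 ± 32.3 to 170.3 ± 21.7, with overlapping groups.

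The log2 fold change of Gal3st1 in controls was -0.38 (SE 0.12, limma adjusted p = 0.0718). That call was lost without saline mouse 106 (adjusted p = 0.231) or 117 (0.203), or without DEX mouse 101 (0.223), 108 (0.163) or 122 (0.134). The averaged call (-0.20, SE 0.07, adjusted p = 0.0601) was lost in 7 of 24 such fits, with adjusted p up to 0.115 (mice 14, 42, 62, 72, 101, 106 and 117). Fa2h, which hydroxylates the fatty acids of myelin galactolipids, fell beside it in controls (-0.60, SE 0.15, adjusted p = 0.0215), from 298 ± 62.5 to 195 ± 22.3. The 12 oligodendrocyte markers (led by Mbp, with none at 0) moved in the same group. Their summed counts in controls were 34450, 31764, 35977 and 50022 after saline and 27646, 29115, 39308 and 27490 after DEX, and 5 of 12 fell past the threshold. Galc went against them in controls. Whether the marker shift had a part in the falls of Gal3st1 and Fa2h was not tested.

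Other glycosphingolipid genes of the wider list moved as well. Neu4, a sialidase that acts on gangliosides and is also a marker of oligodendrocyte precursors, rose by 58.0% in controls, 49.1% in PS and 21.1% in AS animals. For Neu4 the log2 changes were 0.66, 0.57 and 0.27 (each with SE 0.09, limma adjusted p = 2.98e-05, 0.000207 and 0.0719), and its groups did not overlap in any phenotype. The sums of 7 precursor markers, Neu4 among them (led by Olig1, with none at 0), were 6003, 6063, 5649.5 and 6019 and then 6514, 6251, 6387 and 6849 in controls, with no overlap, and they overlapped in PS and AS animals. The part of precursor cells in the rise of Neu4 was not tested. The AS call was lost without saline mouse 14 (adjusted p = 0.116), 40 (0.134) or 44 (0.141), or DEX mouse 60 (0.176) or 72 (0.161). St3gal1, a sialyltransferase of gangliosides and of O-glycans, fell in controls from 706 ± 46.3 to 419 ± 57.5 (-0.76, SE 0.13, adjusted p = 0.000724). St3gal1 also fell in PS animals (-0.44, limma adjusted p = 0.0634) and on average (-0.49, adjusted p = 5.79e-05), and it was not called in AS animals. Its PS call was lost in 7 of 24 fits that left out 1 library (adjusted p from 0.104 to 0.171). In AS animals A4galt, the globotriaosylceramide synthase, fell from 103 ± 17.4 to 56.3 ± 9.58 (-0.87, SE 0.22, adjusted p = 0.0190), in the group where 6 of 12 endothelial markers fell. The sums of 10 mural markers (led by Rgs5, with none at 0) were 7982, 5184, 9076 and 5942 after saline and 4061, 3978, 4977 and 4608 after DEX in AS animals, with no overlap, and 4 of 10 fell past the threshold. The part of endothelial or mural cells in the fall of A4galt was not tested. In the averaged response the wider list gave 8 genes higher and 7 lower among the 15 of 51 called (29.4%, against 15.5% of all genes). Abca1, Fa2h and A4galt were chosen for naming after their values were seen, apart from the 4 genes with the smallest adjusted p in each comparison.

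**Figure D3:**
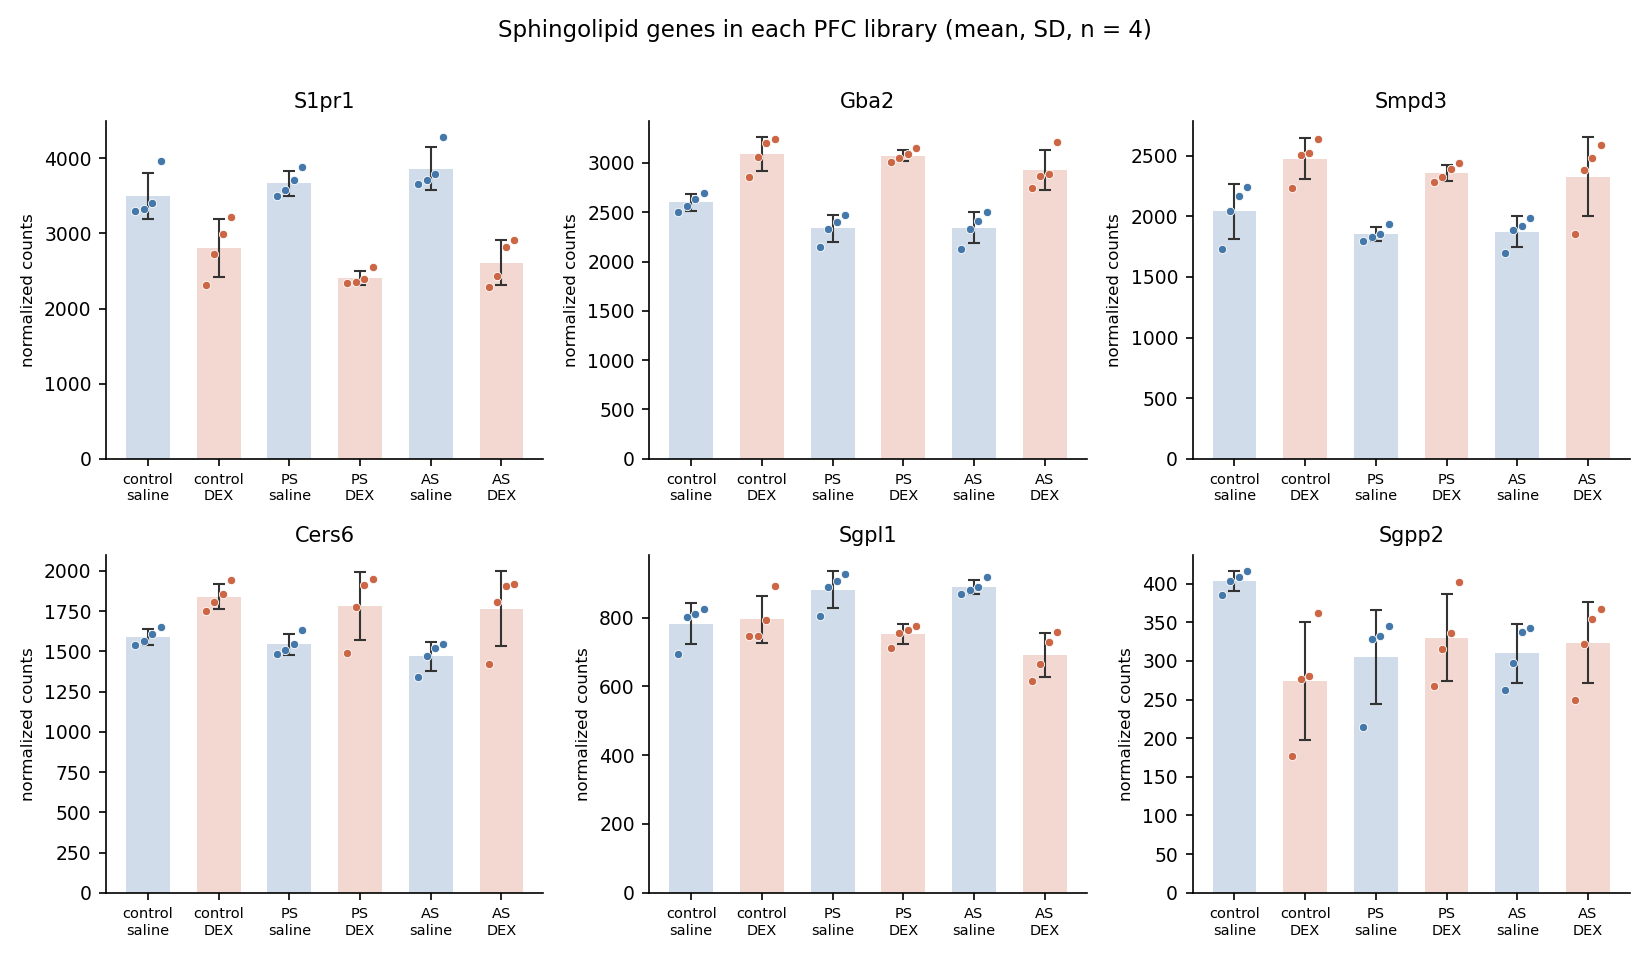
Normalized counts (y axis, from 0) of S1pr1, Gba2, Smpd3, Cers6, Sgpl1 and Sgpp2 in the 6 groups (x axis). Points are libraries, bars group means and whiskers SD (n = 4); S1pr1 is lower and Gba2 higher after DEX without overlap in each phenotype, Sgpl1 is lower in PS and AS animals, and Sgpp2 is lower in controls.

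The genes of synthesis follow. Cers6, a ceramide synthase that prefers shorter acyl chains such as palmitoyl, rose. It had 1537, 1564, 1649.7 and 1605 normalized counts in saline-treated controls and 1753, 1809, 1942 and 1857 after DEX. In PS animals Cers6 had 1635, 1485, 1509 and 1543 and then 1773, 1490.0, 1949.7 and 1913, and in AS animals 1469, 1521, 1545 and 1342 and then 1809, 1907, 1421 and 1921. The controls did not overlap, and in the stressed animals 1 DEX library each, mouse 34 and mouse 60, stayed in the saline range. These were the same libraries that stood farthest from their groups. On the log2 scale the differences were 0.21, 0.20 and 0.26 (SE 0.08 each, adjusted p by limma = 0.197, 0.261 and 0.0792), and 0.22 averaged over the phenotypes (SE 0.05, adjusted p = 0.00255). Without mouse 34 the PS value was 0.28 (adjusted p = 0.0573), and without mouse 60 the AS value was 0.36 (adjusted p = 0.00387). The AS call was lost without any other AS mouse, with adjusted p from 0.105 (mouse 14) to 0.249 (mouse 42).

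Kdsr, the reductase of the second step, and Cers4, a ceramide synthase, were called by limma in the averaged response and in no single phenotype. DESeq2 also called Kdsr in controls, where limma did not (adjusted p = 0.115). Kdsr had 923, 1064, 1109 and 1024 counts and then 1259, 1163, 1224 and 1093 in controls, 1131, 1008, 961 and 966 and then 1183, 1011, 1124 and 1099 in PS animals, and 992, 1099, 1035 and 978 and then 1035, 1164, 1153 and 1145 in AS animals. All 3 pairs of groups overlapped, and the averaged log2 fold change was 0.15 (SE 0.04, limma adjusted p = 0.0131). Cers4 had 2123, 2174, 2232 and 1949 and then 1955, 2074, 1964 and 1948 in controls, 2324, 2297, 2227 and 2478 and then 2153, 1909.7, 2216 and 2286 in PS animals, and 2170.5, 2310.4, 2307 and 2102 and then 2062, 2109, 2022 and 1948 in AS animals. It fell by 0.11 on the log2 scale (SE 0.03, adjusted p = 0.0245). Both calls held when any 1 library was left out. Cers5, also a ceramide synthase, just missed the threshold in AS animals in limma (-0.17, adjusted p = 0.102) and passed it in edgeR (adjusted p = 0.0860), in DESeq2 (0.0475) and without mouse 60 (-0.19, adjusted p = 0.0625). Cers1 and Cers2 were not called after DEX by limma, nor were the subunits Sptlc1 and Sptlc2 of serine palmitoyltransferase, nor its inhibitors Ormdl2 and Ormdl3. Sptlc1 in controls stood at the threshold (0.20, limma adjusted p just past 0.1) and passed it in edgeR (0.0966).

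Sgms1, the Golgi sphingomyelin synthase, rose in controls and was not called in the stressed animals (chromosome 19, 32122727 to 32389714, minus strand). Its counts were 952, 931, 983 and 883 and then 1302, 1202, 1125 and 1154 in controls, with no overlap. They were 971, 918, 934 and 1050.1 and then 948, 763, 1011 and 1192 in PS animals, and 916, 794, 1085 and 958 and then 787, 886, 897 and 872 in AS animals, both overlapping. The log2 fold changes were 0.35 in controls (SE 0.10, limma adjusted p = 0.0455), -0.00 in PS and -0.12 in AS animals (SE 0.10 each). The control call was lost without saline mouse 107 (adjusted p = 0.104) or 117 (0.123), or DEX mouse 101 (0.153) or 108 (0.103). From the wider list Hacd2, a dehydratase that lengthens the very long acyl chains used for ceramides, rose by 78.6%, 74.9% and 74.5% in controls, PS and AS animals (log2 changes of 0.83, 0.81 and 0.79, each with SE 0.07, adjusted p = 5.65e-08, 1.01e-07 and 2.04e-07). All 12 DEX libraries exceeded all 12 saline libraries for Hacd2. Elovl4, an elongase of very long chains, rose in AS animals (0.31, SE 0.07, adjusted p = 0.00697).

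Stress was compared without DEX among the saline-treated animals. Between saline-treated PS animals and controls 1 of the 39 genes was called (2.56%, against 1.51% of all genes). This was Sptssa, the small subunit that activates serine palmitoyltransferase (chromosome 12, 54645392 to 54656573, minus strand). Its counts were 235, 322, 302 and 356 in saline-treated controls, 512, 384, 397 and 373 in PS and 372, 396, 369.6 and 387 in AS animals. All stressed libraries lay above all saline-treated controls. The DEX-treated animals had 397, 375, 359 and 346 in controls, 367, 345, 361 and 314 in PS and 355, 380.3, 393 and 354 in AS. The saline-treated controls had the lowest group mean, and their range overlapped those of the DEX-treated groups.

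The mean of Sptssa was 37.1% higher in PS animals than in controls (log2 fold change 0.46, SE 0.11, limma adjusted p = 0.0405). That call was lost without control mouse 106, the lowest (adjusted p = 0.168), or PS mouse 2, the highest (adjusted p = 0.189). In AS animals the difference from controls was 0.34 (SE 0.11, adjusted p = 0.248). No gene of the list was called between AS animals and controls, where 0.156% of all genes were, or between AS and PS animals, where limma called 0 of 14074 genes and 671 had an unadjusted p under 0.05. At that unadjusted level there were 11 of the 39 genes between PS animals and controls, among 1850 of all genes, 12 between AS animals and controls, among 1548, and 0 between AS and PS animals. DESeq2 on the recovered reads called Sptssa and Smpd1 in PS and Cerk, the ceramide kinase, in AS animals. Of the wider list, 0 of 51 genes were called in these comparisons by limma, and 7, 7 and 3 had an unadjusted p under 0.05.

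The last question was whether DEX acted differently after stress. None of the 39 genes passed in limma for the PS by DEX interaction, where 0 of all genes did and 1404 had an unadjusted p under 0.05, or for the AS by DEX interaction, where 0.348% did. At an unadjusted p under 0.05 there were 10 and 14 of the 39, and 1902 of all 14074 genes in the AS interaction. When AS and PS animals were compared for their response to DEX, 0 of all genes passed in limma, 344 had an unadjusted p under 0.05, and 1 of the 39 was among these. DESeq2 on the recovered reads, the count model of the study, called 6 of the 39 in the AS by DEX interaction, among 439 of the 14074 genes: Acer2, Cerk, S1pr5, Sgms1, Sgpl1 and Sphk1. edgeR called none of the 39 among 77 genes. In limma the AS interaction called 8 of the 39 without mouse 112 (control, DEX), 4 without mouse 44 (AS, saline), 2 each without mouse 14 (AS, saline) or 56 (PS, DEX) and 1 each without mouse 34 (PS, DEX) or 72 (AS, DEX). All genes moved with them, with 664 called without mouse 112, 686 without mouse 44, 157 without mouse 14, 158 without mouse 56, 172 without mouse 34 and 118 without mouse 72, in place of 49.

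Of the 5 genes with the widest AS interaction estimates 4 are described next, chosen after their values were seen, and none was called by limma. The other was Sgpp2, described above (0.66, SE 0.25, limma adjusted p = 0.232). Sphk1, the cytosolic sphingosine kinase, had 146, 159.8, 213 and 167 normalized counts after saline and 332, 225, 175 and 217 after DEX in controls, and 283, 262, 267 and 193 and then 153, 148, 152 and 172 in AS animals. The AS groups were apart and the control groups overlapped. In AS animals alone the DEX response of Sphk1 was -0.67 (limma adjusted p = 0.108, edgeR 0.0888, DESeq2 0.0446). The AS interaction was -1.11 (SE 0.34, limma adjusted p = 0.155, DESeq2 adjusted p = 0.0452). PS animals had 279, 160.5, 301 and 132 and then 156, 161, 166 and 316, and the PS interaction had the same sign (-0.55, SE 0.34, limma adjusted p = 0.607). Acer2 had 127, 159, 193 and 179.6 and then 291, 234, 153 and 282 in controls, and 198, 118, 209.7 and 192 and then 97.1, 109, 163 and 138 in AS animals, all overlapping. Its interaction was -1.01 (SE 0.32, limma adjusted p = 0.167, DESeq2 adjusted p = 0.0602), and that in PS animals -0.54 (SE 0.32, limma adjusted p = 0.600), with 149, 136, 221 and 182 and then 158, 134, 147 and 245 counts.

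S1pr5 went the other way. It had 207, 204, 199 and 209 counts and then 174, 169, 198 and 115 in controls, and 192, 169, 185 and 202 and then 237, 197, 304 and 233 in AS animals. DEX-treated controls lay only just below saline-treated controls, at 198 in DEX mouse 112 against 199 in saline mouse 109. In these 2 libraries 1 read was worth 1.19 and 1.13 normalized counts. The AS groups overlapped at mouse 42. The interaction was 0.70 (SE 0.20, limma adjusted p = 0.120, DESeq2 adjusted p = 0.0441), and that in PS animals 0.50 (SE 0.20, limma adjusted p = 0.409), with 172, 224, 192 and 188 and then 232, 221, 228 and 181 counts. Ugt8a, the galactosylceramide synthase of myelin, had an interaction of 0.61 (SE 0.20, limma adjusted p = 0.172, DESeq2 adjusted p = 0.109), with 228, 319, 282 and 352 and then 367, 402, 389.7 and 358 counts in AS animals. Those AS groups did not overlap, and the DEX response in AS animals was 0.38 (limma adjusted p = 0.131, DESeq2 0.0903). In PS animals Ugt8a had 322, 359, 326 and 393 and then 376, 272, 386 and 296, with an interaction of 0.15 (SE 0.20, limma adjusted p = 0.864). None of the 4 genes was called by limma for a difference between the DEX responses of AS animals and of PS animals.

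Cell type markers moved with these genes. Endothelial marker sums were 6807, 8286, 8907 and 6742 after saline and 10869, 8633, 7225 and 8970 after DEX in controls, and 8743, 5996, 9617 and 7300 and then 4562, 4414, 6925 and 4338 in AS animals. Oligodendrocyte marker sums in AS animals were 20812, 31326, 23503 and 35517 and then 43016, 34168, 48556 and 33146. The median DEX log2 fold change of the oligodendrocyte markers was -0.34 in controls and 0.32 in AS animals, where 3 of 12 rose past the threshold. The mean sums of the 10 mural markers went from 6262 ± 844 to 7418 ± 1314 in controls and from 7046 ± 1797 to 4406 ± 472 in AS animals, and those of 6 leptomeningeal markers from 2417 ± 534 to 3262 ± 639 and from 3312 ± 526 to 2415 ± 729.6. The mean sums of 5 blood markers went from 2227 ± 499 to 3003 ± 1227 in controls and from 2122 ± 844 to 1949 ± 1117 in AS animals. In PS animals they went from 2372 ± 378 to 1355 ± 269, with no overlap. The means of Sphk1 and Acer2 went the same way as the endothelial, mural, leptomeningeal and blood sums in controls and AS animals. Those of S1pr5 and Ugt8a went the same way as the oligodendrocyte sum. In PS animals the oligodendrocyte sum was 31491 ± 4878 and then 36676 ± 4284, while the log2 fold change of Ugt8a was -0.09 (SE 0.14, limma adjusted p = 0.892). The rise in PS animals was in the sum only, since the mean centred log2 value of the same markers was 0.027 and then 0.023. The part of these cell types was not tested.

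**Figure D4:**
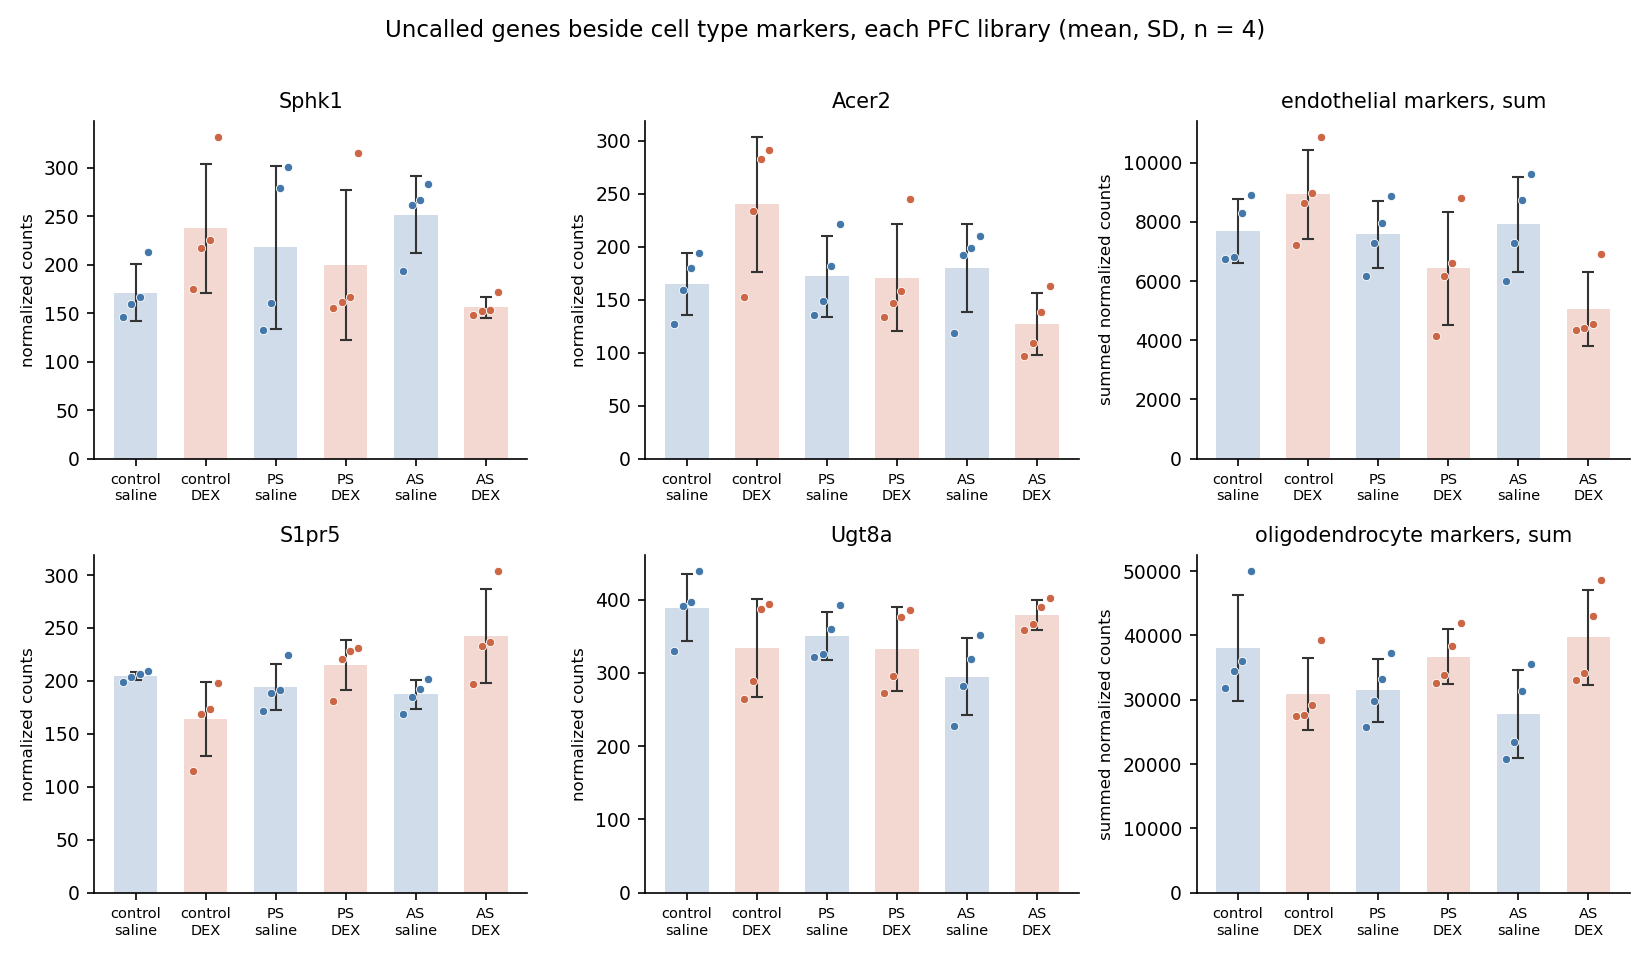
Normalized counts (y axis, from 0) of Sphk1, Acer2, S1pr5 and Ugt8a, and the summed counts of 12 endothelial and 12 oligodendrocyte markers, in the 6 groups (x axis). Points are libraries, bars group means and whiskers SD (n = 4); Sphk1, Acer2 and the endothelial sum are lower, and S1pr5, Ugt8a and the oligodendrocyte sum higher, on average after DEX in AS animals, and the reverse holds in controls.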

How the data were processed

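Poly(A) RNA of the PFC of 24 mice (1 library each) was sequenced with a strand-specific, paired-end protocol. Per the study's methods, the authors trimmed reads with fastp 0.20.1, aligned them to mm10 with HISAT2 2.2.1 and counted genes with featureCounts (Subread 2.0, GENCODE vM22). The deposited table holds a normalized signal, gene counts divided by the size factors of DESeq2 (1.36.0 in the submitters' notes). Whole reads were recovered from it for 100% of values within 0.01 read. The authors' tables of log2 fold changes and p-values were not used, and libraries of other brain regions were not analysed here.

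Because the values are not counts, limma 3.58.1 (R 4.3.3) was fitted to log2(normalized count + 1) with 6 group means and a mean-variance trend. P-values were adjusted over 14074 genes (Benjamini-Hochberg, called under 0.1). They set each difference against the spread between mice within groups, which was pooled over the 6 groups and moderated across genes. In all 10 comparisons were made. On simulated data the limma fit recovered 86% of 1.5-fold and 96% of 2-fold changes for DEX in controls (14074 genes, 200 changed, 14.2% false calls), and 61% and 91% for the PS by DEX interaction (10.6% false calls). DESeq2 made 20.6% and 20.2% false calls in these 2 comparisons, and 3 calls where no gene was changed (DEX in PS), against 0 in limma. Changes under 1.5-fold, such as most of those called among the listed genes, were not simulated. Nor were shifts shared by many genes of a library, so these rates do not cover either case. Alternatives were a pseudocount of 8, a mean of at least 100 normalized counts, only the groups compared, quantile normalization, library size as a covariate, edgeR 4.0.16 and DESeq2 1.42.0 on the recovered reads, and leaving out each library.

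The genes, the wider list, the markers and the tests were chosen with earlier results of these data known. All listed genes could be named. Values in every library were given for the 14 called genes with the smallest adjusted p, and the wider list was named by up to 4 called genes a comparison. Coordinates and exon lengths came from GENCODE vM21 (GRCm38), and promoters from RefSeq.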

Additional observations from a re-analysis of the deposited data

Results flagged for a closer look

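Among the 14 genes given library by library, 84 groups of 4 were examined for a library far from the other members of its group, by Dixon's gap, and 5 stood out. Chance gives about 1 in 20 groups.

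S1pr1 was 3959 in saline-treated control mouse 106, against 3304 to 3413 in the other mice of its group. Sptssa was 512 in saline-treated PS mouse 2, against 373 to 397, and Sgpp2 was 214 in the same mouse, against 328 to 345. Kdsr was 1035 in DEX-treated AS mouse 38, against 1145 to 1164, and Cers4 was 2074 in DEX-treated control mouse 108, against 1948 to 1964. The call of S1pr1 in controls was lost without mouse 106 (limma adjusted p = 0.155), and that of Sptssa between PS animals and controls without mouse 2 (adjusted p = 0.189). The averaged calls of Kdsr and Cers4 held without mouse 38 or mouse 108.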

How the results depend on the processing

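Of the 32 called pairs of listed gene and comparison, 18 were kept in every alternative run (7 other settings and 24 fits without 1 library, except that the averaged response was not fitted with only the groups compared), and 14 were lost in at least 1. Over 979 values 872 stayed past the threshold, 107 did not and 0 changed sign. DESeq2 called 9 listed genes in place of 5 for DEX in AS animals (1614 of all genes in place of 1234), 2 in place of 1 between PS animals and controls, 1 in place of 0 between AS animals and controls and 6 in place of 0 for the AS by DEX interaction, where a fit of only the groups compared called 1. Without 1 library the number of listed genes called ran from 4 to 11 for DEX in controls, 3 to 4 in PS, 3 to 7 in AS and 10 to 13 on average, from 0 to 2 between PS animals and controls, and from 0 to 8 for the AS by DEX interaction. It stayed at 0 in the other comparisons.

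Over all genes, DEX in AS animals called 753 in place of 1234 with only the groups compared. PS animals against controls gave 134 (library size covariate), 523 (only the groups compared) and 431 (DESeq2) in place of 213. AS animals against controls gave 5 (mean of at least 100) and 99 (DESeq2) in place of 22, and AS against PS animals 11 (DESeq2) in place of 0. The PS by DEX interaction gave 9 (pseudocount 8), 4 (quantile normalization), 1 (only the groups compared) and 23 (DESeq2) in place of 0. The AS by DEX interaction gave 1 (mean of at least 100), 31 (quantile normalization), 7 (library size covariate), 82 (only the groups compared), 77 (edgeR) and 439 (DESeq2) in place of 49. Without 1 library the all-gene counts ran from 611 to 1032 for DEX in controls, 509 to 871 in PS, 673 to 1985 in AS and 1945 to 2495 on average, from 57 to 348 between PS animals and controls, 12 to 49 between AS animals and controls, 0 to 5 between AS and PS animals, and from 0 to 3 and 4 to 686 for the PS and AS interactions. With only the groups compared, S1pr1, Smpd2, Smpd3 and Gal3st1 in controls, Smpd3, Cers6 and Neu4 in AS animals and Sptssa lost their calls (adjusted p from 0.110 to 0.257). With library size as a covariate Galc in controls, Sgpl1 in PS animals and Sphk2 on average did (0.108, 0.133 and just past 0.1), and with quantile normalization Asah1 and Gal3st1 on average (0.107 and 0.174). The oligodendrocyte difference for DEX in PS animals was 0.22 from summed counts and -0.00 from mean centred log2 values, and the astrocyte one -0.13 and -0.03. The cause of these changes was not tested. No paired analysis was possible because mouse numbers do not recur between groups.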
